A study of Solanum lycopersicum with 3 samples.

Results

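Probes for 3 class III peroxidase unigenes, out of 11863 probes on the TOM2 long-oligo array, gave a lower signal in ripe fruit of Lycb-1 tomato than in wild type (WT) fruit on each of 3 arrays. SGN-U213351 and SGN-U213352 carry the description peroxidase 4, after a litchi protein, and SGN-U215393 carries the description suberization-associated anionic peroxidase 2 (TMP2). They were picked by name because their ratios were low on these same arrays, so their ratios are described below without a test. Lycb-1 is the tomato cultivar Zhongshu No. 5 carrying a citrus lycopene β-cyclase gene under the constitutive CaMV 35S promoter together with a kanamycin resistance marker, and WT is the untransformed cultivar. Ripe, deseeded fruit of several plants was pooled for each RNA, and each array set 1 pool of Lycb-1, labelled with Cy5, against 1 pool of WT, labelled with Cy3. No array had the dyes swapped, and the transgenic fruit came from progeny of 1 transformant, so dye, line and transgene effects cannot be told apart.

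Class III peroxidases are secreted haem enzymes of plants. They use hydrogen peroxide to oxidise phenolic compounds, and so couple monolignols into lignin, join the aromatic part of suberin and cross-link phenolics and proteins of the cell wall, which stiffens it. They can also produce reactive oxygen. The family is large, its members differ in tissue and in response to wounding and pathogens, and the anionic peroxidases of tomato and potato are known for their link to suberin deposition at wounds. Nearest in Arabidopsis by the array's own annotation are AT1G71695 (PRX12) for both peroxidase 4 unigenes and AT5G05340 (PRX52) for anionic peroxidase 2. PRX52 takes part in lignin formation of the Arabidopsis stem. The lycopene β-cyclase of the construct turns lycopene into β-carotene.

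The array holds 13728 spots, 1568 of them empty, and 5720 probes passed the authors' check of brightness on all 3 arrays, which required at least 400 in the brighter channel. Empty spots had a median of 0 and a 99th percentile of 10 to 15 in the Lycb-1 channel and 27 to 34 in the WT channel. Ratios are log2 of Lycb-1 over WT after print-tip loess, so values below 0 mean lower in Lycb-1. The construct was visible in the resistance gene nptII, which had a mean log2 ratio of 6.80 (SE 0.46). Lycopene β-cyclase, read by a probe of a tomato unigene, had one of 3.08 (SE 0.20). Whether that probe read the citrus transgene or the tomato gene was not tested. Each of the 2 ratios had an adjusted p = 0.045 from limma with n = 3 arrays. Both calls were lost with the authors' ratio, without the filter on dim spots and without replicate 1, and that of lycopene β-cyclase with any array left out, at mean ratios of 6.62 to 6.82 for nptII and 2.98 to 3.21 for lycopene β-cyclase. Pairs of arrays correlated across the 5720 probes with a Pearson's r of 0.16 to 0.38, where probes do not stand for replicates.

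The first peroxidase 4 probe, SGN-U213351, had intensities of 300, 352 and 389 in Lycb-1 on the arrays of replicates 1, 2 and 3, against 1878, 5572 and 2565 in WT. The mean intensity was 347 ± 44.7 in Lycb-1 and 3338 ± 1965 in WT (SD, n = 3 each). The groups did not overlap, since the lowest WT value was 4.83 times the highest Lycb-1 value. After normalisation its log2 ratio was -2.75, -4.12 and -2.75 on the 3 arrays, with a mean of -3.21 ± 0.79 (SD), or 9.24-fold lower in Lycb-1. The spread was larger in the WT channel: normalised log2 values had an SD of 0.10 in Lycb-1 and 0.85 in WT, and the WT pool of replicate 2 was the bright one. In bulk tissue, fewer cells that express the gene and less RNA per cell cannot be told apart.

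The second peroxidase 4 probe, SGN-U213352, read 125, 197 and 326 in Lycb-1, against 1423, 3219 and 2349 in WT. Means were 216 ± 102 in Lycb-1 and 2330 ± 898 in WT (SD, n = 3 each), and the lowest WT value was 4.37 times the highest Lycb-1 value. Its log2 ratios of -3.52, -4.28 and -2.70 averaged -3.50 ± 0.79 (SD), or 11.3-fold lower in Lycb-1. As with the first probe, the ratio was lowest on the array of replicate 2, where WT was brightest. For this probe the Lycb-1 pools varied as well, with an SD of 0.59 in Lycb-1 and 0.65 in WT on the normalised log2 scale.

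For both peroxidase 4 probes the Lycb-1 channel lay below 400 on 3 of 3 arrays, though above the empty spots, and WT lay above 400 on every array. They therefore entered the set of tested probes through the WT channel alone, and a probe admitted in this way had to be lower in Lycb-1 before normalisation. The Lycb-1 channel was also raised, where it lay lower, to the dimmest normalised value found among spots that reached 400. SGN-U213351 was then 8.34-fold lower and SGN-U213352 6.14-fold lower in Lycb-1. Spots below 400 can lie above that value after normalisation, so these folds are not strict minima. The probes share their best protein hit and their Arabidopsis locus, and whether they read separate genes or copies of the same transcript was not tested, so they do not count as independent measurements of peroxidase 4.

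Anionic peroxidase 2, SGN-U215393, had intensities of 465, 392 and 553 in Lycb-1 and of 1332, 1440 and 2874 in WT. Means were 470 ± 80.6 in Lycb-1 and 1882 ± 861 in WT (SD, n = 3 each). Again no Lycb-1 value reached a WT value, the lowest WT value being 2.41 times the highest Lycb-1 value. The log2 ratios of -1.34, -1.84 and -2.43 averaged -1.87 ± 0.54 (SD), or 3.66-fold lower in Lycb-1. Here the lowest ratio fell on the array of replicate 3, not on that of replicate 2. Lycb-1 was below 400 on 1 of 3 arrays, so this probe has a measured value in both channels on the other 2.

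**Figure D1:**
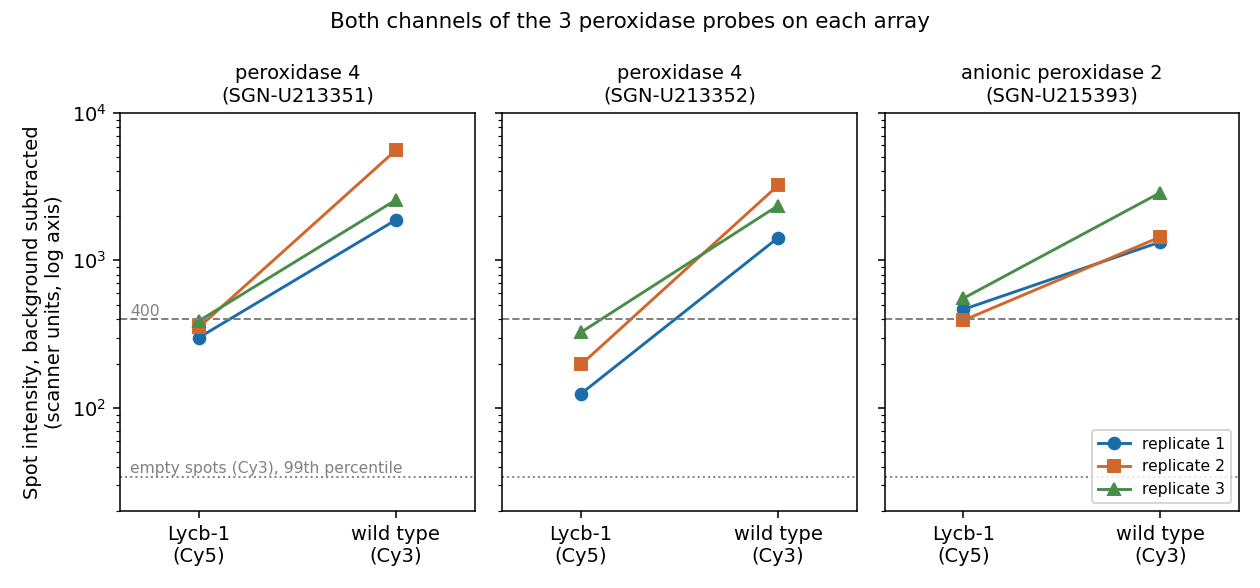
Background-subtracted intensity (log axis) of the 3 probes in the Lycb-1 channel and the WT channel, with a line joining the channels of 1 array; the dashed line marks 400 and the dotted line the highest 99th percentile of empty spots in the WT channel (34). Every line climbs to the right, and both peroxidase 4 probes lie below 400 in Lycb-1 on all 3 arrays.

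Among the 5720 probes tested, ordered by mean log2 ratio from the lowest, SGN-U213352 stood at place 4, SGN-U213351 at place 5 and SGN-U215393 at place 32. Places differed between arrays. SGN-U213351 was at place 14, 4 and 73 on replicates 1, 2 and 3, SGN-U213352 at place 4, 3 and 83, and SGN-U215393 at place 140, 94 and 117. All 3 probes were at least 2-fold lower on every array, as were 0.927% of the probes tested, and all 3 had groups of normalised single-channel values that did not overlap with Lycb-1 lower, as had 8.81%. A SAM rule, which asks for a score (mean ratio over its SE plus a constant) and a fold of 2 or more, took in 1.85% of all probes as lower and 1.22% as higher. Because this contrast chose the probes, these positions restate the choice.

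**Figure D2:**
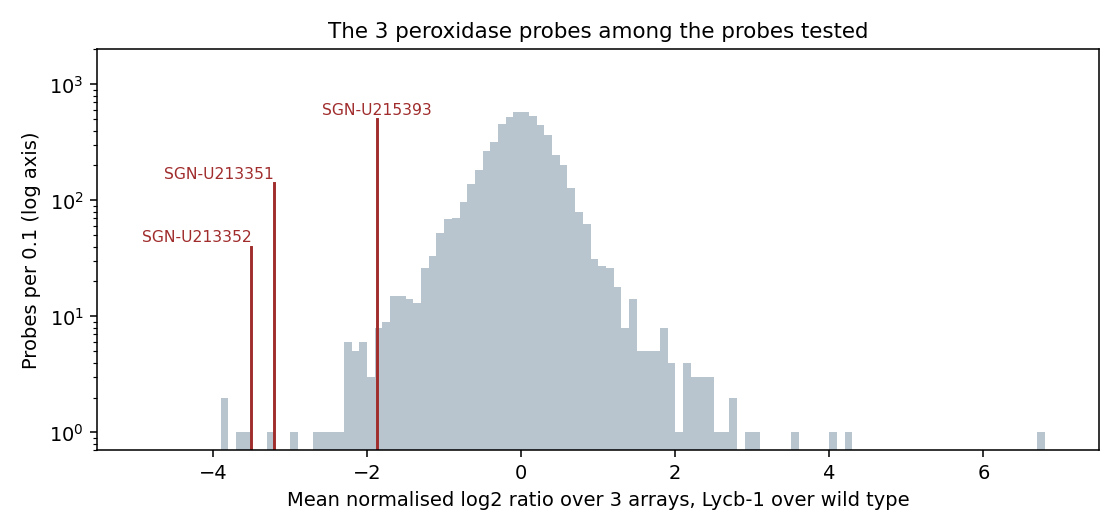
Number of probes (log axis, bins of 0.1) by mean log2 ratio of Lycb-1 over WT for the 5720 probes tested, with vertical lines at the means of the 3 peroxidase probes; the heights of the lines carry no value. Both peroxidase 4 probes (-3.50 and -3.21) lie in the thin lower tail, and anionic peroxidase 2 (-1.87), at place 32 from the lowest, lies higher in the same tail.

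Each of the 3 probes had 1 spot, in a different print block of the array. The loess step moved their ratios by -0.25 to 0.17 on the log2 scale. Other checked spots of the same blocks had median log2 ratios of -0.10 to 0.045. Spots touching the peroxidase spots gave less even values: by array, their medians ran from 0.018 to 0.16 beside SGN-U213351 (2 checked spots), from -0.43 to 0.82 beside SGN-U213352 (2 checked spots) and from -0.43 to 0.028 beside SGN-U215393 (4 to 5 checked spots). The lowest checked spot touching SGN-U215393 read -1.02, -1.43 and -2.07 on replicates 1, 2 and 3, next to its own -1.34, -1.84 and -2.43, and the part of the position on the array in these values was not tested. The authors' own print-tip lowess ratios averaged -3.26, -3.08 and -1.86 for SGN-U213351, SGN-U213352 and SGN-U215393.

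**Figure D3:**
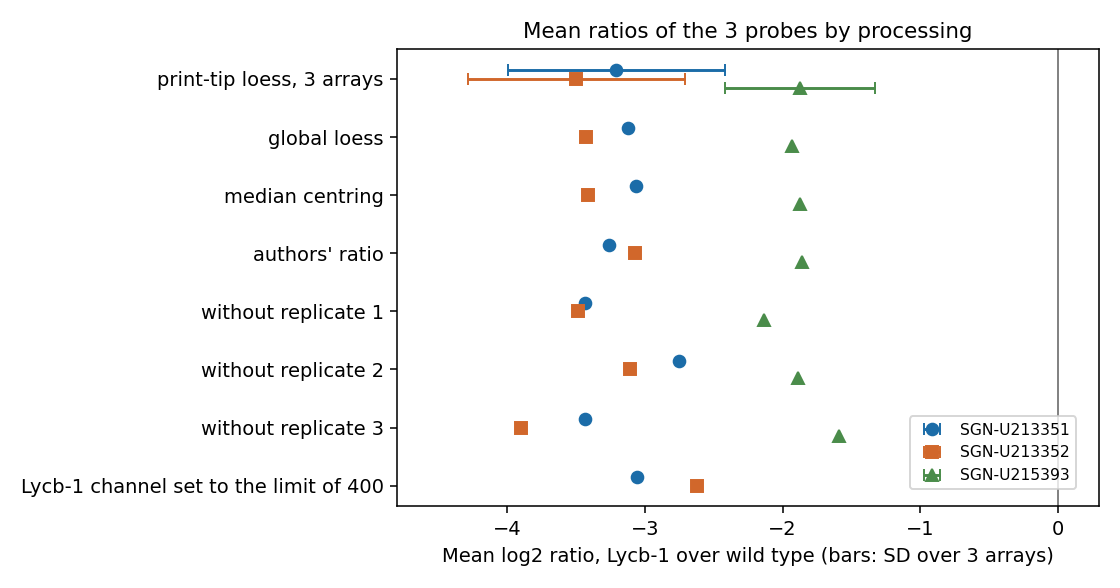
Mean log2 ratio of Lycb-1 over WT for the 3 probes under the main processing (top, bars show the SD over 3 arrays) and under other normalisations and with each array left out. The row named limit of 400 has the Lycb-1 channel raised to the dimmest normalised value of spots that reached 400. It is given for probes below 400 in Lycb-1 on every array. All values are below 0; anionic peroxidase 2 has no value at the limit, since Lycb-1 exceeded 400 on some arrays.

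The rest of the family was mostly too dim to measure. By description 63 probes are class III peroxidases, and 48 of these were checked on 0 arrays, with a brightest channel of 9 to 381 (median 41). A further 7 were checked on 1 or 2 arrays, and 8 on all 3, namely the 3 probes above and 5 others. None of these 5 passed an adjusted p of 0.05 in limma, against 0.0524% of all probes (0.0175% lower and 0.035% higher). At an unadjusted p under 0.05, 2 of the 5 were lower and 0 higher, beside 8.62% lower and 6.82% higher over all probes.

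Closest by name to anionic peroxidase 2 is anionic peroxidase 1 (SGN-U215392, TMP1), which shares its Arabidopsis locus. In the RefSeq annotation of the SLM_r2.1 assembly the genes carrying these names, TAP2 and TMP1 (TAP1), lie next to each other on the same chromosome with 0 genes between them. SGN-U215392 read 832, 486 and 775 in Lycb-1, against 1305, 892 and 2359 in WT, so that 832 in Lycb-1 was close to 892 in WT from another array. Its log2 ratio was -0.66, -0.79 and -1.58 (mean -1.01, SE 0.25, adjusted p = 0.24 from limma, n = 3), below 0 on each array as for anionic peroxidase 2 and likewise lowest on replicate 3. Signal shared between these neighbours through cross-hybridisation was not tested, as probe sequences were not used here.

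SGN-U219648, named only class III peroxidase after a cotton protein, had intensities of 882, 973 and 1158 in Lycb-1 and 1127, 1046 and 2805 in WT. Its mean log2 ratio was -0.71 (SE 0.27, adjusted p = 0.32 from limma, n = 3), and it too was lowest on replicate 3 (-1.35). The cationic peroxidase 40K probe SGN-U219089, with -0.30, 0.11 and -1.07, and the secretory peroxidase probe SGN-U212734, with 0.65, 0.21 and 0.12, had means of -0.42 and 0.33 (adjusted p = 0.51 and 0.48 from limma, n = 3). A cell wall peroxidase first described in pepper, SGN-U215231, gave opposite ratios on different arrays. It read 1868, 1084 and 134 in Lycb-1, against 2036, 98 and 472 in WT, which gave log2 ratios of -0.33, 3.20 and -1.60 (adjusted p = 0.85 from limma, n = 3).

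**Figure D4:**
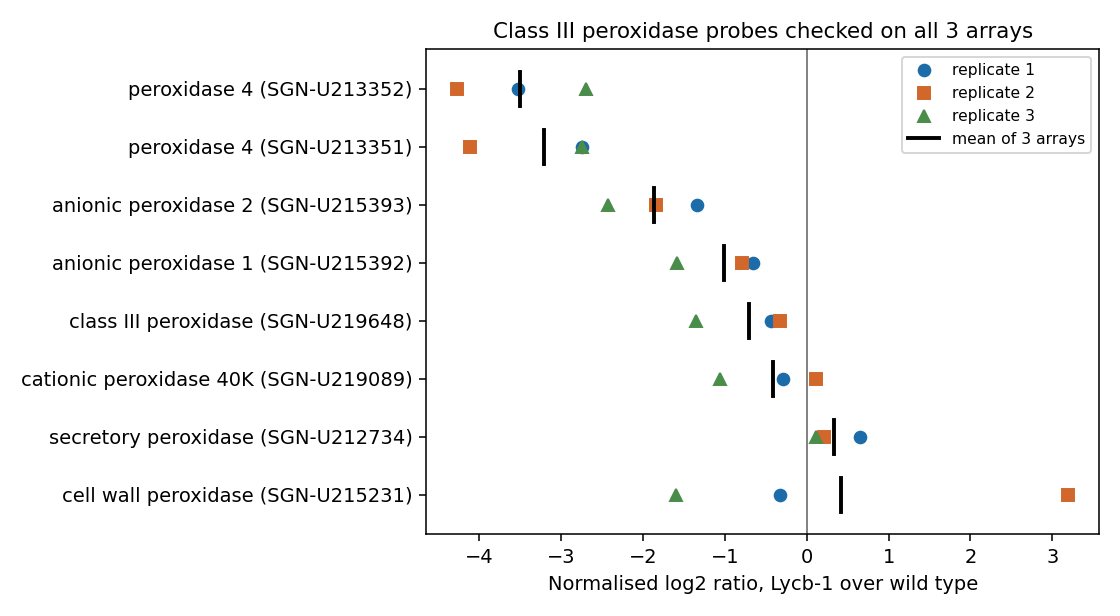
Normalised log2 ratio of Lycb-1 over WT on each array (symbols) and the mean of 3 arrays (bars) for the 8 class III peroxidase probes checked on all arrays. The means run from -3.50 for peroxidase 4 to 0.42 for the cell wall peroxidase, whose arrays spread from -1.60 to 3.20.

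Over the 8 tested class III probes the median of the mean log2 ratios was -0.86, beside -0.0093 over all probes, and without the 3 probes chosen for their low ratio it was -0.42 over 5. Of the 8 probes, 5 were lower on all 3 arrays and 1 was higher on all 3, and without the 3 these counts were 2 and 1, beside 21.3% lower and 20.4% higher of all probes. The normalised single-channel values of Lycb-1 lay wholly below those of WT for 5 of the 8 (2 without the 3) and wholly above for 0. Over all probes these shares were 8.81% below and 7.57% above. The 2 include SGN-U219648, whose intensities overlapped before normalisation: 1158 in Lycb-1 on replicate 3, against 1127 and 1046 in WT on replicates 1 and 2. The list was uneven between arrays, with medians of -0.55, -0.56 and -1.59 on replicates 1, 2 and 3, and without the 3 probes of -0.33, 0.11 and -1.35. Replicate 3 held the lowest ratio for 6 of the 8 probes, and the peroxidase 4 probes were the 2 with their lowest on replicate 2.

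Dimmer probes that share an Arabidopsis locus with the 3 add a few values. PRX12 is the best hit of 5 probes, of which 2 are the peroxidase 4 probes and 2 were checked on 0 arrays. The remaining one, SGN-U215385, had 94, 238 and 170 in Lycb-1, against 142, 1007 and 1439 in WT, with log2 ratios of -1.89 and -3.15 on replicates 2 and 3, where it was checked. PRX52 is the best hit of 11 probes, 7 of them checked on 0 arrays. Of its 2 partly checked probes, SGN-U226863 (327, 390 and 106 in Lycb-1, against 641, 377 and 651 in WT) had -0.94 and -2.66 on replicates 1 and 3. SGN-U214493 had -4.56 on replicate 3 (51 in Lycb-1, against 1411 in WT) but was brighter in Lycb-1 on replicates 1 and 2 (179 and 191, against 29 and 155 in WT), both below 400. Of all 7 class III probes checked on 1 or 2 arrays, 4 were lower and 2 higher in Lycb-1 wherever checked, and 1 was mixed. Passing on an array required 1 bright channel only, so large ratios are favoured among these values.

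The tested probes most like each of the 3 were found by the Euclidean distance between log2 ratios over the 3 arrays. For SGN-U213351 the nearest was SGN-U229259, described as a tetrahydroxychalcone 2'-glucosyltransferase, at a distance of 0.58 (ratios -2.48, -3.60 and -2.74), followed by SGN-U213352 at 0.79 and a tropinone reductase homolog, SGN-U215683, at 1.49. For SGN-U213352 they were SGN-U213351 at 0.79, the same glucosyltransferase probe at 1.24 and phosphate transporter 3, SGN-U219528, at 1.59. For SGN-U215393 they were a mannan synthase, SGN-U215015, at 0.61, the chlorophyll a/b-binding protein Cab-3C at 0.70 and a Cab-3C-like protein, SGN-U218921, at 0.76. Anionic peroxidase 2 was thus not among the 3 nearest probes of peroxidase 4. Among the 5720 tested it stood at place 27 for SGN-U213351 (distance 2.70) and place 35 for SGN-U213352 (distance 3.28). At the same distances counted from SGN-U215393, SGN-U213351 stood at place 888 and SGN-U213352 at place 2462. Such distances also carry the low ratios by which the probes were chosen. Only 3 arrays enter each distance.

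Enzymes that supply, share or follow the substrates of class III peroxidases were described from lists made by words in the annotation. Peroxidases of other classes, which remove peroxide inside the cell, had 25 probes, 13 of them tested, with a median log2 ratio of 0.048. Of these 13, 2 were lower and 4 higher on all 3 arrays (21.3% and 20.4% of all probes), and 0 passed an adjusted p of 0.05 in limma. At an unadjusted p under 0.05, 1 was lower and 1 higher (8.62% and 6.82% of all probes). The largest ratios were 0.83 for cytosolic ascorbate peroxidase SGN-U215177, which spends ascorbate to reduce hydrogen peroxide, and 0.75 for peroxiredoxin SGN-U213568 (adjusted p = 0.37 and 0.30 from limma, n = 3). The lowest mean of this list was -0.74.

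Enzymes that make or remove hydrogen peroxide, such as superoxide dismutase, catalase and germin, had 29 tested probes of 55, with a median log2 ratio of 0.16. On all 3 arrays 4 of the 29 were lower and 9 higher, beside 21.3% and 20.4% of all probes. None passed an adjusted p of 0.05 in limma, and 4 were lower and 2 higher at an unadjusted p under 0.05, beside 8.62% and 6.82% of all probes. Catalases, which break down hydrogen peroxide in peroxisomes, went both ways: of 7 tested probes, 3 were lower on all 3 arrays, 3 were higher on all 3 and 1 was mixed. SGN-U232054, the lowest, read 1457, 1255 and 1433 in Lycb-1, against 3957, 3147 and 2460 in WT (mean log2 ratio -1.15, SE 0.23, adjusted p = 0.19 from limma, n = 3). Catalase isozyme 1, SGN-U212687, had a mean of -1.08 (SE 0.27, adjusted p = 0.24 from limma, n = 3). The highest catalase, isozyme 3 (SGN-U223576, singled out after its values were seen), had 2876, 2561 and 3657 in Lycb-1, against 2554, 934 and 1680 in WT (mean 0.91, SE 0.34, adjusted p = 0.32 from limma, n = 3).

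Lignin and suberin synthesis, which makes the phenolics that class III peroxidases polymerise, had 21 tested probes of 61 and a median log2 ratio of -0.36. Lower on all 3 arrays were 6 of the 21 and higher on all 3 were 2, beside 21.3% and 20.4% of all probes. None passed an adjusted p of 0.05 in limma, and 2 were lower and 1 higher at an unadjusted p under 0.05 (8.62% and 6.82% of all probes). The median rested on replicate 3: by array it was -0.19, 0.23 and -0.57, and without replicate 3 it was 0.091. The lowest was hydroxycinnamoyl CoA quinate transferase, SGN-U215154, an enzyme of chlorogenic acid synthesis, with 6367, 4249 and 7398 in Lycb-1, against 19052, 22360 and 10461 in WT (mean log2 ratio -1.69, SE 0.41, adjusted p = 0.23 from limma, n = 3). The next, SGN-U221357 at -0.92, is annotated first as OPCL1, a ligase of jasmonate synthesis. A further list, not one of peroxidase substrates, held tropinone reductases, which are short-chain dehydrogenases. It had 3 tested probes of 6 and a median of -2.57, and each of the 3 was below 0 on every array, beside 21.3% of all probes. One of them, SGN-U215683, passed the test (mean -2.64, adjusted p = 0.045 from limma, n = 3), the one probe called lower of all 5720 (0.0175%). That call was lost with the authors' ratio, without the filter on dim spots, with any array left out and with the channels unpaired, at means of -2.66 to -2.50.

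Markers of tissues that a pool of fruit can hold in unequal amounts were described in the same way, and none of their probes passed an adjusted p of 0.05 in limma. At an unadjusted p under 0.05, 4 fruit surface probes were lower, 2 seed probes higher and 8 ripe fruit probes higher (8.62% lower and 6.82% higher of all probes). Probes matched by fruit surface words (epidermis and cuticle) had 12 tested of 22 and a median log2 ratio of -1.17. By description these 12 were lipid transfer proteins, a glycolipid transfer protein (SGN-U214784, mean 0.12) and a wax synthase (SGN-U223487, mean 0.095). The median is therefore mostly one of lipid transfer proteins and need not stand for the fruit surface. Lycb-1 was lower on every array for 4 of the 12 and higher on every array for 0 (21.3% and 20.4% of all probes), and 7 of the 22 never reached 400. Their summed normalised signal was 32139 to 56558 in Lycb-1 and 63133 to 129444 in WT. By array the median of this list was 0.10, -1.46 and -1.65, and its probes had ratios both above and below 0 on replicate 1. Probes matched by seed words had 4 tested of 12 and a median of 0.72 (1.49, 1.86 and -0.30 by array, so of the other sign on replicate 3). Of the 4, 2 were higher and 0 lower on all 3 arrays (20.4% and 21.3% of all probes). Summed signals were 7164 to 21530 in Lycb-1 and 3752 to 8135 in WT, and 5 of the 12 never reached 400. The tested probes were a steroleosin and late embryogenesis proteins, of which U77719 is annotated as ethylene-responsive. The list therefore need not stand for seed tissue. Ripe fruit genes had 11 tested probes of 14 and a median of 0.89, with Lycb-1 higher on every array for 9 and lower on every array for 0 (20.4% and 21.3% of all probes), summed signals of 407425 to 476666 in Lycb-1 and 182949 to 229062 in WT, and 3 of the 14 never reaching 400. Of the 11, 5 came within 1% of the highest Lycb-1 signal of an array, 3 of them on all 3 arrays, so this median and these sums are compressed by the top of the scale; no tested probe of the other lists did. Several of the 11 ripe fruit probes shared a gene, as phytoene synthase 1, E4 and E8 were each read by more than 1. Not higher on every array were MADS-RIN (mean 0.098) and the phytoene synthase 1 probe SGN-U212834 (mean -0.26). Phytoene synthase 1 also belongs to the carotenoid pathway that the transgene enters, so this list need not stand for ripening stage. The part of tissue makeup and of ripening stage in the low peroxidase signals was not tested.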

How the data were processed

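Intensities per spot and channel were deposited by the authors after background subtraction in image analysis. The ratio of Lycb-1 over WT in the deposited spot files was normalised by the authors with print-tip lowess. The value table deposited by the authors holds log2 of that ratio. Intensities of 0 or less were dropped here, and new ratios were made by print-tip loess (48 blocks of 286 spots, controls at weight 0) in limma 3.58.1 (R 4.3.3). The 13 control names and empty spots were removed, spots the authors checked on all 3 arrays were kept (5846), and spots of 1 probe were averaged. The mean ratio was tested against 0 with lmFit and eBayes, with Benjamini-Hochberg adjustment over 5720 probes. Single-channel values were scaled with Aquantile. The fit was tested on simulated data. Pools were separate biological pools by the methods. With 3 arrays the precision is limited.

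The 3 probes and all lists were chosen with earlier results of these data known. Named probes are the 3, every tested class III peroxidase, probes sharing an Arabidopsis locus with the 3, up to 2 probes with the largest absolute mean ratio of a list, nptII, lycopene β-cyclase and the 3 nearest probes of each of the 3. Word matches to other genes were left out (2 OCP3 probes and 1 misspelt superoxide dismutase from the class III list, 1 germination gene from the hydrogen peroxide list). The RefSeq table matched 0 probe names, so genes carry the array's descriptions. The authors' lists of differentially expressed spots were not used.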

Additional observations from a re-analysis of the deposited data

How the results depend on the processing

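The mean ratios of the 3 peroxidase probes were below 0 in all 26 values computed under alternatives, and 25 of these lay within 1 SD of the main value. The exception was SGN-U213352 with Lycb-1 raised to the dimmest normalised value of spots that reached 400, at -2.62. Across the other 8 alternatives, SGN-U213351 ranged from -3.44 to -2.75, SGN-U213352 from -3.90 to -3.08 and SGN-U215393 from -2.14 to -1.59. Without the filter on dim spots or with the channels unpaired, each mean equalled the main value by construction. The probes were chosen for low ratios and lay below 0 on every array, so the sign with an array left out was fixed in advance. Leaving out 1 of 3 arrays also cannot move a mean by 1 SD over those arrays. Only the other normalisations, the authors' ratio and the raised Lycb-1 channel could therefore have fallen outside 1 SD. Requiring at least 400 in both channels left none of the 3 measured. The number of probes called over the whole array depended on the processing: against 3 (2 higher, 1 lower), global loess gave 9 (3 higher, 6 lower), median centring 17 (8 higher, 9 lower), the authors' ratio 0, no filter on dim spots 0 of 10259, both channels of at least 400 gave 1 of 4936, and leaving out each array gave 0 to 1. With no replicate block, the channels unpaired, 8 were called; a plain one-sample test with Benjamini-Hochberg adjustment called 0 and the SAM rule 176 (70 higher, 106 lower). The main fit had 883 probes at an unadjusted p under 0.05. Median centring raised the median of all probes by 0.16 and that of the hydrogen peroxide list to 0.40. The lignin and suberin median ranged from -0.61 to 0.091 with an array left out, and the tropinone reductase median was -2.02 without the filter. The other 43 of 46 medians moved by less than 1 SD of a list's 3 array medians. They cover the class III, other peroxidase, hydrogen peroxide, lignin and suberin, and tropinone reductase lists, and the class III list without the 3 probes. Among these, the class III median went from -0.86 over 8 probes to -0.32 over 35 without the filter on dim spots. Array medians of that list lay far apart (-0.55, -0.56 and -1.59), so 1 SD is a wide limit for it. Medians with the channels unpaired equalled the main ones by construction and are counted among the 43, so that count overstates stability. The medians of the marker lists, under 9 alternatives each, ran from -1.55 to -0.43 for fruit surface, 0.45 to 1.67 for seed and 0.83 to 1.78 for ripe fruit. Without replicate 3 the fruit surface median was -0.43 and the seed median 1.67. The class III median without the 3 probes and the alternatives of the marker lists were added after seeing the data. The cause was not tested. Ratios of probes dim in Lycb-1 are limited by that channel, and 3 arrays without a dye swap limit all ratios.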
